A study of Caenorhabditis elegans with 2 samples.

Results

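The annotation of the WBcel235 genome build held 15363 genes of biotype piRNA among 46890 nuclear genes, and all 15363 were taken, each as its gene body of 21 bp plus 200 bp on each side (a window of 421 bp). These windows were set against deposited UNC-55 ChIP-seq peak lists from Caenorhabditis elegans, made from whole animals at the late embryonic stage. Both samples came from strain NC1639, which per the labels carries the integrated array wdIs49 (pttr39::UNC-55a::GFP; dpy-20+), so the tagged factor was expressed from the ttr-39 promoter in every sample. They formed 1 group of 2 biological replicates, sexes pooled, with unc-55 given as the antibody, GFP as the tag in the genotype and a GFP-FLAG tag in a note. UNC-55 is a nuclear hormone receptor of the COUP-TF family, known for its role in the VD motor neurons, and the ttr-39 promoter is known for driving expression in D-type motor neurons. The cells that carried the factor were not separated from the rest of the embryo. No sample lacks the array, so no group was compared with another, and each value below is a count, share or density with an interval for counting error.

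Worm piRNAs, also called 21U-RNAs, are germline small RNAs that begin with U, are bound by the Argonaute PRG-1 and guide the silencing of foreign and repetitive sequences. Each is transcribed by RNA polymerase II from a tiny gene of its own, and most of these genes crowd into a pair of domains on chromosome IV, between and inside other genes. Their usual promoter has a conserved upstream element, the Ruby motif, with the core letters CTGTTTCA, and the proteins SNPC-4 and PRDE-1 act at these domains. A smaller class of piRNAs is known to come from the promoters of protein-coding genes without that element.

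The annotated loci had this layout. Chromosome IV held 14714 of the 15363 genes. Of all, 14204 (92.5%) lay in the clusters as bounded here, with 2816 in a proximal cluster of 2.5 Mb and 11388 in a distal cluster of 3.7 Mb, and 1159 lay elsewhere. The proximal members ran from chrIV:4630304-6998272 and the distal members from chrIV:13543927-17199461, first to last base, in ce11 coordinates. Both strands were used about equally, with 7616 genes on the plus and 7747 on the minus strand, and 14784 genes (96.2%) began with T. In the clusters 53.5% of the 5′ ends were intergenic, 30.6% in introns, 13.7% in a protein-coding promoter window and 2.19% in exons. Outside the clusters the intergenic share was 30.5%, the intron share 22.9%, the promoter share 28.4% and the exon share 18.3%. Promoter windows here reach 1000 bp upstream and 200 bp downstream from the transcript starts of protein-coding genes. The CTGTTTCA core, on the gene's own strand and starting 25 to 70 bases upstream of its 5′ end, was found for 4945 of the 14204 cluster genes (34.8%), 161 of the 510 genes elsewhere on chromosome IV (31.6%) and 43 of the 649 genes on the other chromosomes (6.63%). Its median start was 46 bases upstream. Only exact matches of these letters were counted, so a gene without a match was not shown to lack the upstream element.

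The piRNA genes beside IDR peaks show whether the core stands upstream of them. The first 6 sequences below belong to the cluster genes nearest to the 6 strongest of these peaks in the clusters, ranked 70, 178, 608, 805, 994 and 1261 by signal. The next 6 belong to genes outside the clusters beside the peaks ranked 461, 559, 1058, 1368, 1702 and 1804, the strongest there on chromosomes II, III and IV. Each line runs 5′ to 3′ on the gene's strand through 60 upstream bases and the 21 bases of the piRNA, read from the RefSeq WBcel235 genome. Capitals at the end mark the piRNA, and capitals further left mark CTGTTTCA where it was found. The stretches are chrIV:13717072-13717152 (minus), chrIV:5820049-5820129 (minus), chrIV:5820919-5820999 (plus), chrIV:5508114-5508194 (minus), chrIV:13721119-13721199 (plus), chrIV:5492143-5492223 (plus), chrII:1320673-1320753 (plus), chrIV:9080220-9080300 (plus), chrIV:12268588-12268668 (plus), chrII:10371094-10371174 (plus), chrIII:7189965-7190045 (plus) and chrIV:9884637-9884717 (minus).
21ur-7020: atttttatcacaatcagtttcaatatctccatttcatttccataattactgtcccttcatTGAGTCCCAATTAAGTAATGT
21ur-14677: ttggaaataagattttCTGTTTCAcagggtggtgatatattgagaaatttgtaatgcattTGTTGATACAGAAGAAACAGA
21ur-3912: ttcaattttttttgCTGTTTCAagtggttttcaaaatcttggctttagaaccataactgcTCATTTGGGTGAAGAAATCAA
21ur-11950: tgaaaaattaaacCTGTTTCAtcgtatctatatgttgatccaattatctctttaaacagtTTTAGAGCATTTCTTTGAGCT
21ur-8457: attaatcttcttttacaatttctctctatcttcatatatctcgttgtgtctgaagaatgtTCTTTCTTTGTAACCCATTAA
21ur-3771: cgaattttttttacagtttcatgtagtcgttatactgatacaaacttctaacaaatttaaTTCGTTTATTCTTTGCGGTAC
21ur-13751: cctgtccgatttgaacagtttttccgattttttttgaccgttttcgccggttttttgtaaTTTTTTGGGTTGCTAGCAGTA
21ur-13391: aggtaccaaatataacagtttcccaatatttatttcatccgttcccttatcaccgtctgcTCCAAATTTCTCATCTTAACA
21ur-13227: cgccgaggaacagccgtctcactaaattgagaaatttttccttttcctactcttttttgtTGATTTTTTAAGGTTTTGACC
21ur-14788: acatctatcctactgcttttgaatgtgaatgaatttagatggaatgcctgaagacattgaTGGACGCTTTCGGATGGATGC
21ur-7304: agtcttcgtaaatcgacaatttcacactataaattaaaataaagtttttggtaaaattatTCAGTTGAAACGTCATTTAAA
21ur-13999: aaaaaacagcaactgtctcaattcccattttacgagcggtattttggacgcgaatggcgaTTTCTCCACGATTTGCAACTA
All 12 piRNAs begin with T. The core was found upstream of 21ur-14677, 21ur-3912 and 21ur-11950, all in the clusters, starting 44, 46 and 47 bases before the 5′ end. It was not in the searched window of the other 3 cluster genes or of the 6 genes outside the clusters.

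The peak lists differed in length between the replicates, and this bears on every count. The authors' IDR set (irreproducible discovery rate, which scores the agreement of peak ranks across lists) held 2511 peaks, the list of pooled reads 30000 regions, replicate 2's list 30000 and replicate 1's list 3577, of which 3563 were nuclear. Of the 2511 IDR peaks, 770 (30.7%) met a region of replicate 1's list and 2510 a region of replicate 2's. Most IDR peaks thus met a region of replicate 2's list but none of replicate 1's. With lists of such unequal length, these overlaps do not show how much each replicate contributed to the IDR set. No read counts were analysed, so the depth of the libraries is unknown.

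IDR summits were rare at piRNA genes. Of the 2511 IDR summits, 27 lay in a piRNA window, and they reached 34 of the 15363 genes, or 0.221% (95% Wilson interval 0.158 to 0.309%). When the nuclear genome was divided into stretches of 421 bp, the length of a piRNA window, 1.05% of them held an IDR summit. No summit lay inside a piRNA gene body. The low share belonged to the clusters: 21 of 14204 cluster genes had a summit in the window (0.148%, 0.0967 to 0.226%), against 0.774% of the stretches in the clusters. Outside the clusters it was 13 of 1159 genes (1.12%, 0.657 to 1.91%), against 1.07% of the stretches there, which is within the interval. Neighbouring windows share summits, so the genes are not independent and these intervals are too narrow.

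Within the clusters the proximal and distal domains had different shares. The proximal cluster had a summit at 15 of 2816 genes (0.533%, 0.323 to 0.877%) and the distal cluster at 6 of 11388 (0.0527%, 0.0241 to 0.115%), and the intervals do not overlap. Away from the clusters, 4 of 98 genes on chromosome I had a summit, 3 of 109 on II, 2 of 78 on III, 4 of 510 on the rest of IV, 0 of 202 on V and 0 of 162 on X. The zeros allow shares of up to 1.87% on V and 2.32% on X by the Wilson interval, so a share near that of the genome was not detectable as a difference there. Shares of other gene classes, counted over the body plus 200 bp, were 1.92% for microRNA, 4.9% for tRNA, 11.8% for snoRNA and 5.77% for protein-coding genes, whose bodies are longer than those of piRNA genes.

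Because windows overlap heavily in the clusters, density per Mb of sequence gives a count that uses each summit once. The merged windows covered 3.32 Mb, or 3.32% of the nuclear genome, and 46.4% of the clusters. In the clusters 15 summits fell in 2.88 Mb inside windows, or 5.21 per Mb (95% exact Poisson interval 2.92 to 8.59), and 101 in 3.32 Mb outside windows, or 30.4 per Mb (24.8 to 37.0). The ratio of inside to outside was 0.171 (0.0925 to 0.296, exact conditional interval). With replicate 2 left out, the 2511 strongest regions of replicate 1's list gave a ratio of 0.627 (0.424 to 0.916), and with replicate 1 left out, those of replicate 2's list gave 0.186 (0.103 to 0.318). In the proximal cluster the densities were 14.6 per Mb inside and 31.5 per Mb outside windows, with a ratio of 0.465 (0.219 to 0.898). The distal cluster had 1.88 per Mb inside and 29.2 per Mb outside windows, with a ratio of 0.0643 (0.0168 to 0.176). Sequence between the windows of the clusters thus had summit densities near the 25.5 per Mb found outside windows in the rest of the genome. Away from the clusters the densities were 26.9 per Mb (13.9 to 47.1) inside and 25.5 per Mb outside windows, with a ratio of 1.06 (0.546 to 1.85).

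**Figure D1:**
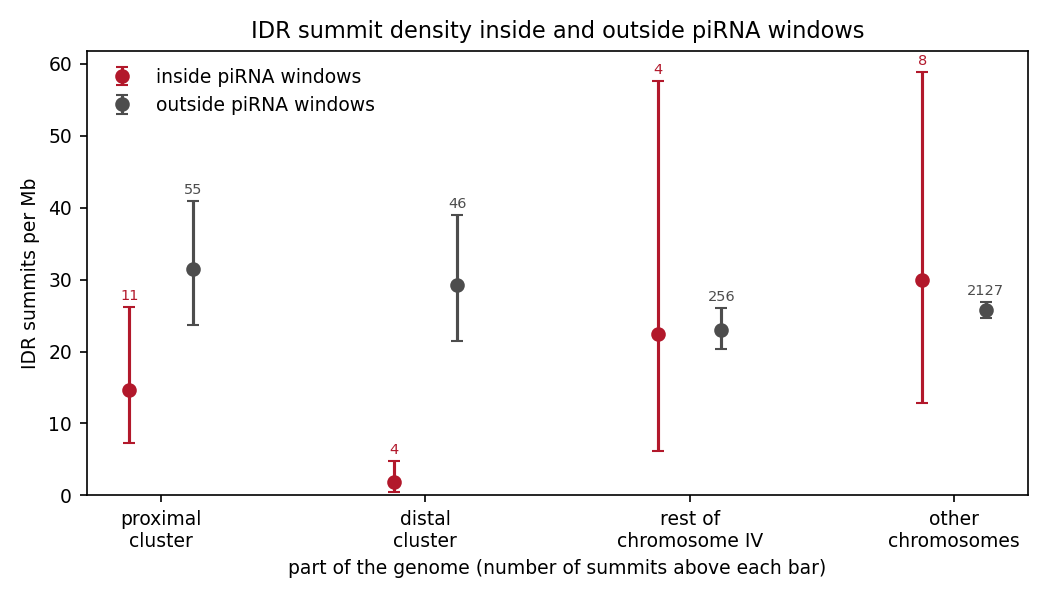
IDR summits per Mb (y axis) inside piRNA windows (red, left of each pair) and outside them (grey) in the proximal cluster, the distal cluster, the rest of chromosome IV and the other chromosomes. Points are densities, bars 95% exact Poisson intervals, and the number above each bar is the count of summits. The red points lie at 14.6 and 1.88 per Mb in the clusters, below the grey points at 31.5 and 29.2, while the red bars of the last 2 pairs span the grey points.

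The lower density inside cluster windows was found in each kind of sequence with enough summits to compare. Intergenic sequence of the clusters had 7.01 per Mb inside and 40.3 per Mb outside windows (ratio 0.174, 0.0779 to 0.351). Introns had 3.93 per Mb inside and 23.2 per Mb outside windows (ratio 0.169, 0.0318 to 0.585). Promoter windows had 4.41 per Mb where they overlapped piRNA windows and 45.0 per Mb where they did not (ratio 0.0981, 0.0115 to 0.379), the first from 2 summits. Exons held 0 summits inside and 2 outside windows. Protein-coding genes were also counted by an IDR summit anywhere in the promoter window, inside or outside piRNA windows. Of 549 cluster genes with a piRNA window reaching into the promoter window, 17 had such a summit (3.10%, 1.94 to 4.90%). Without a piRNA window there, it was 39 of 392 cluster genes (9.95%, 7.36 to 13.3%). Outside the clusters it was 37 of 438 genes with a piRNA window there (8.45%) and 1373 of 18594 without (7.38%). Of all protein-coding genes, 7.34% had such a summit. The cluster genes recount the same promoter summits, 2 inside and 39 outside piRNA windows, so they are not separate evidence. By replicate 1's full list the cluster density ratios were 0.326 (0.133 to 0.696) in promoter windows and 0.747 (0.427 to 1.31) in intergenic sequence. In introns its ratio was 1.26 (0.626 to 2.58). For the IDR set, the intergenic ratio was 0.662 (0.236 to 1.63) in the proximal and 0.0649 (0.0125 to 0.215) in the distal cluster.

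Summit density changed sharply with distance from the nearest piRNA gene body. In the clusters, 1 IDR summit lay within 99 bp of a body, in 1.96 Mb of sequence, or 0.509 per Mb (0.0129 to 2.84). Between 100 and 199 bp there were 14, or 15.4 per Mb (8.42 to 25.8). Between 200 and 299 bp there were 28, or 57.1 per Mb (37.9 to 82.5), the highest density of the 13 distance bins. Bins from 300 bp outward ranged from 5.76 to 40.0 per Mb. The weaker regions did not follow this profile as closely: the pooled list had 202 summits per Mb within 99 bp, 241 per Mb at 100 to 199 bp, 300 per Mb at 200 to 299 bp and 303 per Mb at 10000 bp or more.

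**Figure D2:**
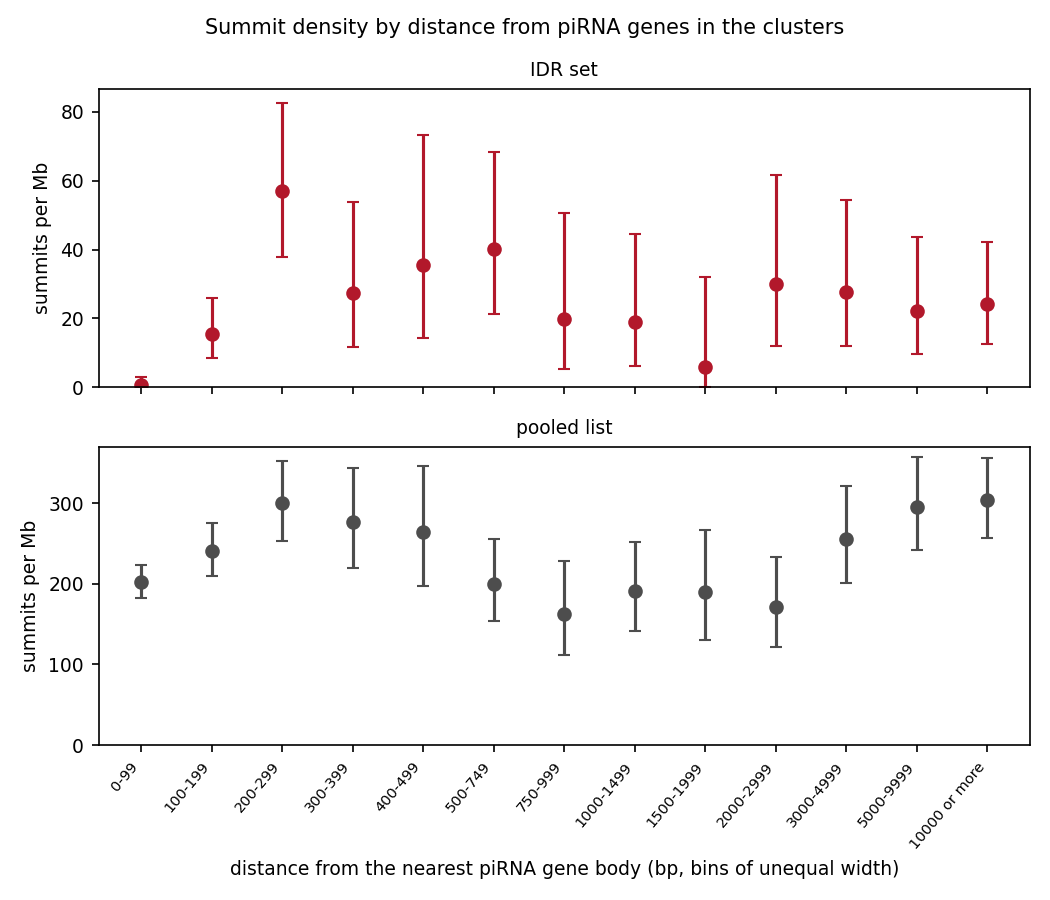
Summits per Mb of cluster sequence (y axes) by distance from the nearest piRNA gene body (x axis, bp, bins of unequal width) for the IDR set (top) and the pooled list (bottom), with 95% exact Poisson intervals as bars. The IDR density was 0.509 per Mb in the nearest bin and 57.1 per Mb at 200 to 299 bp, while the pooled density was 202 and 300 per Mb in the same bins.

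The share of summits at piRNA genes was higher among weaker regions. Of the 2511 strongest pooled regions, which gave the same counts as the IDR set, 1.08% had the summit in a piRNA window. Ranks 2512 to 5000 had 1.17%, ranks 5001 to 10000 had 1.70%, ranks 10001 to 15000 had 2.40% and ranks 25001 to 30000 had 3.54%, beside the 3.32% of the genome in windows. Within the clusters the share went through 12.9, 17.4, 28.7, 43.3, 53.9, 55.5 and 51.9% over the 7 rank classes, beside 46.4% of the cluster length in windows. Replicate 2's list gave 13.9% in its first class and 56.9% in its last. Over all pooled regions, 2575 piRNA windows (16.8%) overlapped a region by at least 1 bp, against 21% of the 421 bp stretches. The share was 16.2% for cluster genes and 16.8% for cluster stretches, and 23.5% for genes elsewhere and 21.3% for stretches elsewhere. Of the pooled regions below rank 2511, replicate 1's list overlapped 20 of 604 with the summit in a cluster window (3.31%, 2.15 to 5.06%). In the clusters outside windows it overlapped 47 of 729 (6.45%, 4.88 to 8.47%). These intervals overlap slightly, and the difference was not tested.

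**Figure D3:**
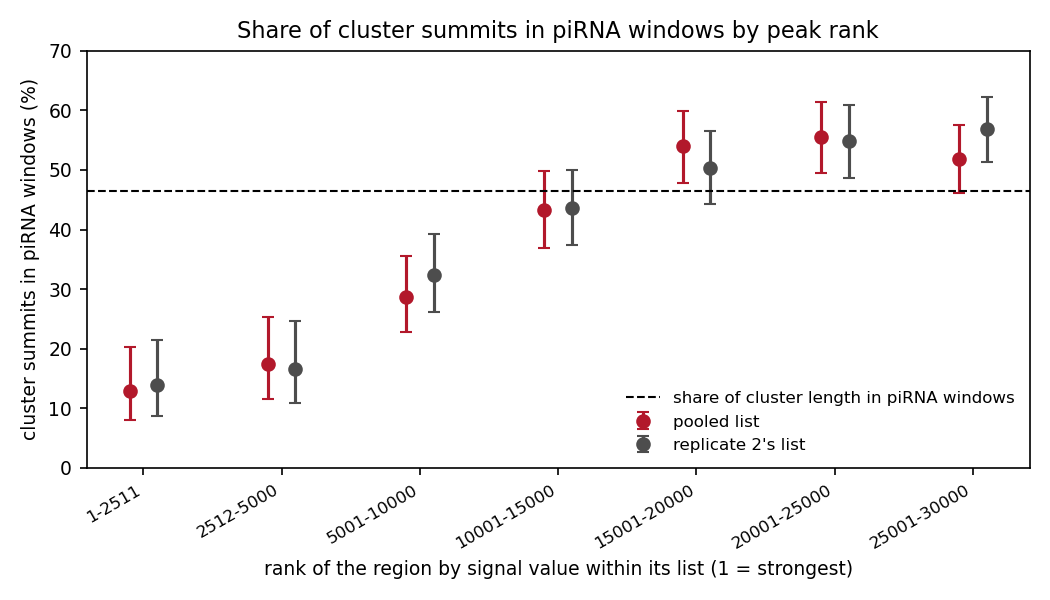
Percent of cluster summits that lay in a piRNA window (y axis) by rank of the region within its list (x axis, strongest at left) for the pooled list (red) and replicate 2's list (grey), with 95% Wilson intervals. The dashed line marks the 46.4% of cluster length in windows. The strongest class lies at 12.9 and 13.9%, and the classes beyond rank 15000 lie between 50.4 and 56.9%.

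Base composition moved with these results. The piRNA windows of the clusters had 28.8% ± 3.82 GC (SD, n = 14204 windows), against 35.7% ± 6.49 for 421 bp stretches of the clusters outside windows (n = 7891). Windows outside the clusters had 32.5% ± 4.61 (n = 1159), against 35.6% ± 5.93 for stretches there. IDR summits, in contrast, sat in GC-rich sequence: the 201 bp around the 27 summits at piRNA genes had 40.4% ± 4.57 GC, against 44.6% ± 6.13 around the other 2484. Mean GC around pooled summits was 44.6% in ranks 1 to 2511 and 34.9% in ranks 25001 to 30000. When every base of the clusters was classed by the GC content of the 201 bp around it, 60.7% of the window sequence had under 30% GC, where 1 of the 116 cluster summits lay. At 40 to 45% GC the densities were 54.5 per Mb inside (6 summits) and 58.0 per Mb outside windows (31 summits), with overlapping intervals. At 35 to 40% they were 16.6 per Mb (5.39 to 38.8) inside and 34.0 per Mb (22.2 to 49.8) outside windows, with overlapping intervals. At 45% and above they were 24.2 per Mb inside (1 summit, 0.614 to 135) and 100 per Mb outside windows (41 summits, 71.8 to 136). Applying the outside density of each GC class to the window sequence gave 23.3 summits, where 15 were observed, a ratio of 0.644 (0.361 to 1.06, from the Poisson interval of the 15 alone). The same calculation on the full lists gave 1.17 (0.900 to 1.51) for replicate 1, 1.20 (1.11 to 1.30) for replicate 2 and 1.18 (1.09 to 1.28) for the pooled list. For the IDR set, within 99 bp of a gene body the calculation gave 10.1 summits, where 1 was observed. At 200 to 299 bp it gave 10.9, where 28 were observed. Summits outside windows set the outside density themselves, so an excess in an outside bin is balanced by shortages in other outside bins. This holds for every list. The shortage near the bodies was not seen in the other lists taken whole. Replicate 2's and the pooled list hold 30000 regions each, mostly ranked beyond 2511. Within 99 bp, replicate 1's list had 34 summits where the calculation gave 32.1. Replicate 2's list had 404 where it gave 343, and the pooled list 397 where it gave 337. At 200 to 299 bp replicate 1's list had 17 where it gave 13.6. Replicate 2's list had 152 where it gave 113, and the pooled list 147 where it gave 113. The calculation was not made for ranks 1 to 2511 of the replicates' lists alone. Those ranks of replicate 2's list gave a ratio of 0.186 (0.103 to 0.318) inside to outside windows, without GC classes. The classes were chosen after the lower density had been seen.

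**Figure D4:**
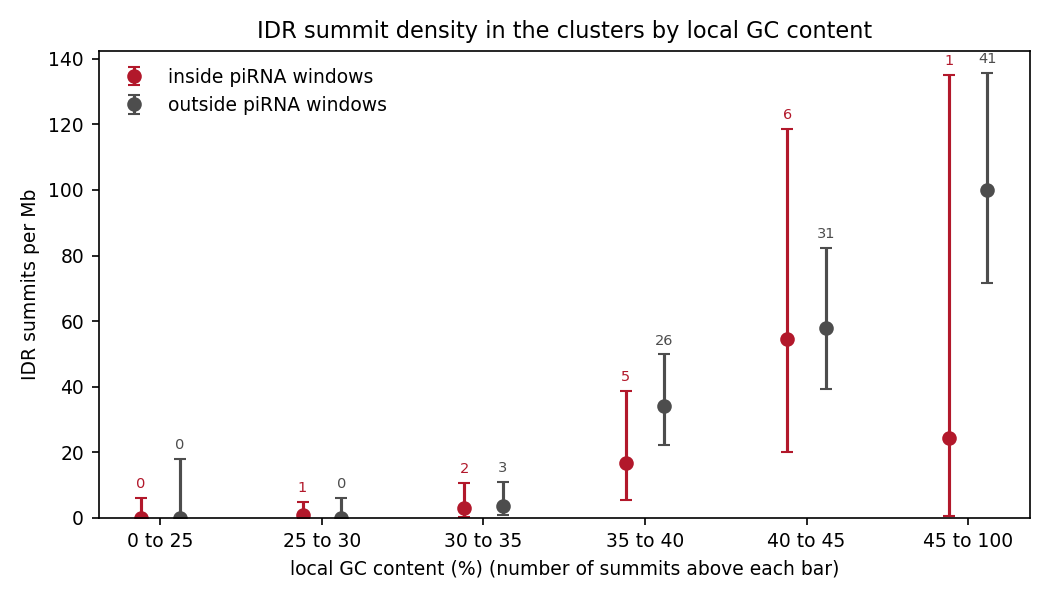
IDR summits per Mb of cluster sequence (y axis) by GC content of the surrounding 201 bp (x axis, percent) inside piRNA windows (red, left of each pair) and outside them (grey), with 95% exact Poisson intervals and the number of summits above each bar. Grey points increase from class to class from 30% GC upward, and at 40 to 45% the red point, 54.5 per Mb, lies close to the grey point, 58.0 per Mb, whereas in the last class the red point rests on 1 summit and lies below the grey point.

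At a larger scale, summit density was low in the bins richest in piRNA genes but did not fall steadily with their number. In bins of 100 kb along chromosome IV, the 19 bins with 300 to 486 piRNA genes had 8.95 IDR summits per Mb (5.21 to 14.3), against 27.1 per Mb (21.8 to 33.2) in the 34 bins with none. Between these, bins with 1 to 19 genes had 20.5 per Mb (17.5 to 23.9), those with 20 to 99 had 24.4 (15.3 to 37.0), those with 100 to 199 had 21.8 (15.3 to 30.0) and those with 200 to 299 had 28.0 (20.2 to 37.8). Protein-coding genes were also sparser in the densest bins, with 99.5 per Mb, against 174 per Mb in the bins with no piRNA gene.

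The 27 peaks at piRNA genes were of middling strength. Their signal values ranged from 24.8 to 88.4 with a median of 33.2, beside a median of 34.4 for the other IDR peaks. They ranked from 70 to 2334. Those ranked 641, 796, 902 and 1705 lie on chromosome I, and their sequences are not shown. Replicate 2's list overlapped all 27 and replicate 1's list 4 (14.8%, 5.92 to 32.5%), beside 766 of the 2484 other IDR peaks (30.8%, 29.1 to 32.7%). In the clusters 1 of 15 was overlapped by replicate 1, and elsewhere 3 of 12. Protein-coding promoter windows held 10 of the 27 summits (37.0%, 21.5 to 55.8%), beside 48.9% of the other IDR summits. The clusters had 2 summits in promoters, 3 in introns and 10 intergenic, whereas the rest of the genome had 8, 2 and 2. The nearest piRNA body was a median of 139 bp away. The summit lay upstream of the nearest piRNA's 5′ end for 5 of the 15 cluster peaks and for 9 of the 12 others.

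**Figure D5:**
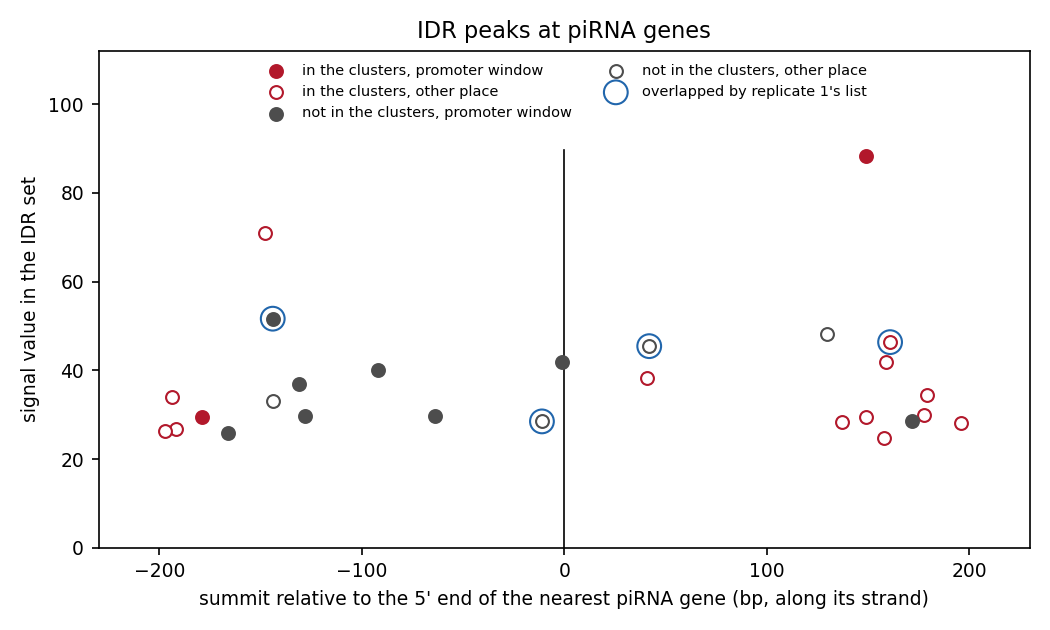
Signal value in the IDR set (y axis) against the position of the summit relative to the 5′ end of the nearest piRNA gene (x axis, bp along its strand) for the 27 IDR peaks at piRNA genes, in the clusters (red) and not in the clusters (grey). Filled points lie in a protein-coding promoter window, and blue rings mark the 4 peaks overlapped by replicate 1's list. Cluster points gather toward both edges of the window, and filled grey points lie mostly left of 0.

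In the clusters the strongest peaks at piRNA genes were mostly far from protein-coding starts. The strongest, rank 70 with a signal of 88.4, lay 129 bp from 21ur-7020 in the promoter window of C47A4.1, and another at rank 994 (38.3) lay 21 bp from 21ur-8457, the nearest of all cluster summits to a piRNA body. Replicate 2's list had these regions at ranks 64 and 1113, and replicate 1's list overlapped neither. A pair of peaks stood in the same intergenic region upstream of egal-1, a homologue of the Drosophila RNA transport factor Egalitarian. The first, rank 178 (71.0), lay 148 bp from 21ur-14677 and 4576 bp upstream of egal-1, and it also reached 21ur-441. The second, rank 608 (46.3), lay 141 bp from 21ur-3912 and 3653 bp upstream of egal-1. It was the only cluster peak at a piRNA gene that replicate 1's list overlapped, at rank 541 there and rank 879 in replicate 2's list.

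Another pair of cluster peaks lay in unc-5. In an intron of unc-5, the netrin receptor of axon guidance, the peak at rank 805 (41.8) was 139 bp from 21ur-11950 and within reach of 21ur-9552 and 21ur-14633. A further unc-5 intron peak, rank 1851, lay 117 bp from 21ur-15285 and is named because of its gene, after its values were seen. Rank 1304 (34.0) was 194 bp from 21ur-5578 and 4903 bp upstream of unc-44, the ankyrin needed for axon growth. Rank 1723 (29.5) was 179 bp from 21ur-12264 in the promoter window of jnk-1, a Jun N-terminal kinase. The remaining named cluster peaks were rank 1261 (34.4) at 21ur-3771, rank 1674 (29.9) at 21ur-7438 upstream of sorb-1, and rank 1722 (29.5) at 21ur-10662 in an intron of hot-9. None of these 7 was overlapped by replicate 1's list, and all were by replicate 2's list.

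Outside the clusters, 8 of the 12 peaks at piRNA genes stood in protein-coding promoter windows. Rank 461 (51.6) lay 448 bp upstream of vig-1, a homologue of the Drosophila RISC component VIG, and 144 bp upstream of the 5′ end of 21ur-13751. Replicate 1's list overlapped it at rank 668 and replicate 2's list at rank 561. Cytosolic ribosomal protein genes had 4 of these 12 peaks, a grouping noticed after the values were seen. Rank 796 (41.9) lay in rpl-19, 1 bp from 21ur-12380. Rank 902 (40.0) lay in the promoter windows of rpl-24.1 and rps-10, 92 bp from 21ur-11631, rank 1058 (37.0) in those of ppm-1.H and rpl-34, 131 bp from 21ur-13227, and rank 1702 (29.6) 330 bp upstream of rps-21, 64 bp from 21ur-7304 and also in reach of 21ur-10581. Of 78 genes named rpl or rps, 53 (67.9%) had an IDR summit in the promoter window, beside the 7.34% of all protein-coding genes, whether or not a piRNA gene was near.

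Further promoter peaks were rank 1705 (29.6) at atp-1, an ATP synthase subunit, and mcrs-1, 128 bp from 21ur-12279, and rank 1804 (28.7) in the promoter windows of mccc-1 and the splicing factor prp-18, 152 bp from 21ur-13999. Away from promoters, rank 641 (45.4) lay 22 bp from 21ur-14484 in an intron of ahr-1, the aryl hydrocarbon receptor, where replicate 1's list overlapped it at rank 2057. Rank 559 (48.1) was 110 bp from 21ur-13391 and 1841 bp upstream of mans-4, and rank 1368 (33.2) was 144 bp from 21ur-14788 and 1413 bp upstream of the homeobox gene ceh-58. The third peak outside the clusters overlapped by replicate 1's list, rank 1819, was in an intron of Y42H9AR.5, 11 bp from 21ur-14570, and is named only for that overlap. For the genes outside the clusters whose window overlapped a promoter, 9 of 430 (2.09%, 1.10 to 3.93%) had a summit, against 1.71% of promoter-overlapping stretches there. For those with a promoter-free window it was 4 of 729 (0.549%, 0.214 to 1.40%), against 0.735% of promoter-free stretches. Both stretch values lie within the intervals. In the clusters the promoter-overlapping genes had 3 of 2622 (0.114%), against 1.14% of stretches, and the promoter-free genes 18 of 11582 (0.155%), against 0.636%.

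The 201 bp around the IDR summits at piRNA genes did not hold the piRNA promoter core. The 6 lines below give 201 bp centred on the 3 strongest summits at piRNA genes of the clusters, ranked 70, 178 and 608, and the 3 strongest outside the clusters on chromosomes II, III and IV, ranked 461, 559 and 1058, on the plus strand, with each match of GAGAGA or ACGCAG on either strand in capitals. They are chrIV:13716843-13717043, chrIV:5820117-5820317, chrIV:5821040-5821240, chrII:1320489-1320689, chrIV:9080310-9080510 and chrIV:12268417-12268617.
peak near 21ur-7020: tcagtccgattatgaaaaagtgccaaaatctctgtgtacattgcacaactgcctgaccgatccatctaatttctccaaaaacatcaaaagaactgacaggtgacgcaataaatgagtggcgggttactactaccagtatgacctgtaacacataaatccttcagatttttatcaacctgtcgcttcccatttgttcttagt
peak near 21ur-14677: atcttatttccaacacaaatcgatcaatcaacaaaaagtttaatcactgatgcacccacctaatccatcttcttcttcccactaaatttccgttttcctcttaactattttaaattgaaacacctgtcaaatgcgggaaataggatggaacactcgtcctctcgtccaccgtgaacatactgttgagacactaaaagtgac
peak near 21ur-3912: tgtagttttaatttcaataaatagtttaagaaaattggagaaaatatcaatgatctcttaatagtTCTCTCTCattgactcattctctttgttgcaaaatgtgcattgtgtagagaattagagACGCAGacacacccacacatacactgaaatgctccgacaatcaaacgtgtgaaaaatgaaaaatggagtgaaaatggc
peak near 21ur-13751: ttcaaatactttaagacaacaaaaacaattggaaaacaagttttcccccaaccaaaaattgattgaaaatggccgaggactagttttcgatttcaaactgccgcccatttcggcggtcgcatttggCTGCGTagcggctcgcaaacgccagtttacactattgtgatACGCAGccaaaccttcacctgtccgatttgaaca
peak near 21ur-13391: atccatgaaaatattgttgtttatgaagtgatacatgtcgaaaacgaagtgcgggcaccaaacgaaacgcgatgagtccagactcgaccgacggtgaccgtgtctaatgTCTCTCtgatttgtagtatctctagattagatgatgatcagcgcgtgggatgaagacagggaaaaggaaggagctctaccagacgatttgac
peak near 21ur-13227: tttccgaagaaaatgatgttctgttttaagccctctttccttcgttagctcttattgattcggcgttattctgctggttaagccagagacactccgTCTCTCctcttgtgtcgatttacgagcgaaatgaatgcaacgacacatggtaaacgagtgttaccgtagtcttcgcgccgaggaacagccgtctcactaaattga
The summits ranked 70 and 178 had no match of GAGAGA or ACGCAG, and the other 4 had from 1 to 3. The 2 motifs came from earlier work on these same peaks and are no independent evidence. GAGAGA was in 12 of the 27 summit windows at piRNA genes (44.4%, 27.6 to 62.7%), against 51.7% of the other IDR summit windows and 9.99% of 201 bp stretches of the genome. ACGCAG was in 9 of 27 (33.3%, 18.6 to 52.2%), against 27.3% of the other IDR summit windows and 3.81% of stretches. AGGTCA, the half-site letters of nuclear receptors, was in 2 of 27 (7.41%), against 6.32% of the other summit windows and 4.82% of stretches. Both were in the clusters, at ranks 70 and 805, or 2 of the 15 cluster windows (13.3%, 3.74 to 37.9%). For cluster summits outside piRNA windows it was 4.95% (2.13 to 11.1%). CTGTTTCA on either strand was in 0 of 27, against 25 of 2484 other IDR summit windows (1.01%). It was in 14.6% of 201 bp stretches of the clusters and in 170 of the 736 weaker pooled summit windows at piRNA genes (23.1%). The cluster IDR summits at piRNA genes lay a median of 148 bp from the nearest body, and the core started a median of 46 bases upstream. A 201 bp window can thus miss the core of the nearest gene, so the count of 0 partly restates these distances. No match says only that these letters were not in the window.

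Cluster piRNA genes with and without an exact match of the core letters had a summit about equally often. Genes without an exact match were not shown to lack the upstream element. With CTGTTTCA upstream it was 8 of 4945 (0.162%, 0.0820 to 0.319%), and without it 13 of 9259 (0.140%, 0.0821 to 0.240%). Of the 13 genes with a summit outside the clusters, 0 had the core (0 to 22.8%). This interval includes the share of all genes there, 204 of 1159 (17.6%), and the 6.63% on chromosomes other than IV.

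Genes of the piRNA pathway were examined for UNC-55 peaks of their own. Of 36 listed factors for piRNA transcription, processing and silencing, 34 were found in the annotation by name, and prg-2 and tofu-3 were not. An IDR summit lay in the promoter window of 2 of the 34 (5.88%, 1.63 to 19.1%), beside 7.34% of all protein-coding genes. These were mut-16, the scaffold of Mutator foci, with the peak at rank 66 (signal 89.1) 472 bp upstream of its start on chromosome I, and mut-15, another Mutator protein, with rank 426 (53.4) 259 bp upstream on chromosome V. The mut-15 summit also lay in the promoter window of fib-1, the nucleolar fibrillarin. Replicate 2's list had the regions at ranks 63 and 598, and replicate 1's list had no summit in either promoter window. The Argonaute gene prg-1 and the transcription factor gene snpc-4 had no IDR summit there, and their strongest pooled summits ranked 28982 and 4891. The prde-1 promoter window had no summit in any list. Just outside the IDR set, tost-1 had a pooled summit at rank 2513 and nrde-4 at rank 2612. Replicate 1's list had summits in the promoter windows of 3 other members, attf-6, glh-1 and csr-1. All 3 are among its 2511 strongest regions, which had a summit in the promoter window of 5.13% of all protein-coding genes.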

How the data were processed

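Peak lists of UNC-55 ChIP-seq in 2 biological replicates of late embryos were analysed in ce11 coordinates. The texts that the authors deposited beside the files say that each replicate and the pooled alignments were set against a control, and that the IDR set was derived from the resulting lists. For the caller and aligner, names and versions were not given in the sources used here. The signal value of each region was set by the authors, is not scaled between lists, and was used only to rank and describe regions within a list. The deposited summit offset placed each peak, and mitochondrial regions were left out. How reads from near-identical sequence were treated is not known here.

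Genes came from the Ensembl annotation of WBcel235 and bases from the RefSeq genome of that build, whose chromosome lengths contained every region. Positions are 1-based. The clusters spanned 2.5 and 3.7 Mb of chromosome IV and were set by position. Places were assigned in the order promoter window, exon, intron, intergenic. Shares have 95% Wilson intervals, densities exact Poisson intervals and density ratios exact conditional intervals, for counting error only. No p-value was computed, since the design has 1 group. Counting was tested on simulated data with planted summits and checked against bedtools. Python 3.11.15, numpy 2.4.6, pandas 2.3.3 and scipy 1.17.1 were used.

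The members, lists and tests were chosen with earlier results of these data known. Named peaks were the 10 with the largest signal inside and the 10 outside the clusters among those with the summit in a piRNA window, with the nearest piRNA and protein-coding gene, and every pathway gene with an IDR summit in its promoter window. Alternatives were other flanks, lists, overlaps, cluster bounds and promoter windows, and, added after the data were seen, GC classes and kinds of sequence.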

Additional observations from a re-analysis of the deposited data

How the results depend on the processing

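Flank length set the counts. With flanks of 0 bp, 0 summits lay in a piRNA gene body, so every share was 0% (promoter-free, cluster and non-cluster genes alike), where 0.0393% of 21 bp stretches of the clusters held a summit. With 500 bp, 83 summits reached 1.35% of all piRNA genes, 1.38% of promoter-free, 1.28% of cluster and 2.24% of non-cluster genes, against 1.88% of 1021 bp stretches in the clusters and 2.55% elsewhere. With 1000 bp, 125 summits reached 2.99, 2.78, 2.87 and 4.40% of the same groups, against 3.59% of 2021 bp stretches in the clusters and 4.85% elsewhere. Counting whole regions gave 66 peaks and 0.879% of all, 0.804% of promoter-free and 0.810% of cluster genes, against 1.41% of cluster stretches.

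The peak list mattered as well. The 1255 strongest IDR peaks gave 11 summits at piRNA genes, 0.0976% of all, 0.0812% of promoter-free, 0.0634% of cluster and 0.518% of non-cluster genes, and 9.35 summits per Mb of clusters. The 10000 strongest pooled regions gave 141, 1.28%, 1.15%, 0.993%, 4.75% and 67.6 per Mb. IDR peaks overlapped by replicate 1 gave 4, 0.0260%, 0.0244%, 0.00704%, 0.259% and 5.32 per Mb. For the 1255 strongest IDR peaks, 0.387% of 421 bp stretches in the clusters and 0.534% elsewhere held a summit. The 10000 pooled regions gave 2.74 and 4.18% of these stretches, and the IDR peaks overlapped by replicate 1 gave 0.211 and 0.326%. Leaving out a replicate and taking the 2511 strongest regions of the other gave 29 to 57 summits at piRNA genes, shares of 0.247 to 0.605% of all, 0.203 to 0.625% of promoter-free, 0.169 to 0.563% of cluster and 1.12 to 1.21% of non-cluster genes, 17.5 to 37.9% of these summits in promoters, and 18.5 to 20.2 summits per Mb of clusters. In each of these ranges replicate 1's list gave the value farther from that of the IDR set, except for non-cluster genes. The cluster share stayed below that of cluster stretches under each of the 7 list and overlap alternatives, by replicate 1's list at 0.563% against 0.849%. The non-cluster share was above that of stretches in 4 and below in 3.

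The ratio of density inside to outside cluster windows, 0.171, was 0.465 in the proximal and 0.0643 in the distal cluster, 0.644 within GC classes, and 0.186 to 0.627 with a replicate left out, where 0.627 came from replicate 1's list. All of these stayed below 1, though the interval of the GC value reached 1.06. That GC value is of the IDR set alone. The full lists, which differ from it in length, gave 1.17 for replicate 1, 1.20 for replicate 2 and 1.18 for the pooled list. The pathway list had 2 bound genes in the IDR set and 3 in each replicate's strongest 2511, that is 3 of 34 beside 5.13% of all protein-coding genes for replicate 1 and 7.37% for replicate 2. Of 85 alternative values, 39 stayed within the error of the value reported, or within 1.5 times it for counts of summits or genes, and 46 did not. No paired analysis was possible because the 2 replicates form 1 group. Counts under 5, unknown depth and the short list of replicate 1 limit the precision of every share.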
